A study of Mus musculus with 6 samples.

Results

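The integrated stress response was followed through 36 genes, chosen by name from the 54532 genes measured. They were 3 eIF2alpha kinase genes, transcription factors around ATF4 and CHOP, and feedback, amino acid and folate genes these factors are known to control. RNA was sequenced from mouse cells labelled primary lung fibroblasts, in 3 libraries of calumenin knockdown (KD) cells and 3 libraries of NC cells. The sample descriptions call the same libraries knockout and wild type, the labels do not spell out NC, and no knockdown reagent, strain, age or time is given in the sources used here. The series asks how loss of calumenin, which binds calcium in the secretory pathway, affects senescence and fibrosis signalling in fibroblasts. Whether the replicates are separate cultures or animals is not stated, so p-values here reflect only how much these libraries vary, which may be technical.

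In this response, stress-activated kinases phosphorylate the alpha subunit of the initiation factor eIF2, which slows protein synthesis in general and favours translation of the Atf4 mRNA. ATF4 is a bZIP transcription factor that pairs with C/EBP-type partners and induces genes for amino acid uptake and synthesis, while CHOP, encoded by Ddit3, acts with it on genes of translation recovery and cell death. In fibroblasts the response is known for supplying glycine and proline, the main residues of collagen. Because ATF4 is controlled largely at translation, mRNA levels do not measure its protein or its activity.

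Values are FPKM, reads scaled by gene length and by a size for each library, as deposited by the authors, so levels can be compared between genes. That size was not the read total: it was 1.01 to 1.02 times the recovered reads in KD libraries and 0.987 to 0.996 times in NC libraries, and median-of-ratios factors of the deposited values were 1 in all 6 libraries. Reads recovered from them came to 16191536 to 18312888 per KD library and 15907164 to 16280183 per NC library. Calu had 13.4 ± 1.07 FPKM in KD and 224 ± 3.43 FPKM in NC (SD, n = 3 each), or 6.0% of the NC level. The fibroblast genes Col1a1, Col1a2, Pdgfra, Pdgfrb and Vim were expressed in every library, whereas Dcn and Lum, which also mark fibroblasts, were at or near 0 and Thy1 was below 0.2 FPKM. Epithelial, endothelial and leukocyte marker lists summed to less than 1 FPKM in every library, and of 4 smooth muscle markers only Des (mean 6.18 FPKM) reached 1 FPKM. KD1 stood apart from KD2 and KD3: the chi-square over its degrees of freedom, a measure of disagreement in reads beyond sampling noise, was 17.5 and 29.1 against these libraries but 4.47 between KD2 and KD3 and 2.31 to 3.19 between NC libraries, and 2.56% of its reads were mitochondrial, against 1.60% to 1.97% in the other 5 libraries.

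More of the stress response genes were lower in KD than in NC. Of the 36 members, 34 reached a mean of 1 FPKM over the 6 libraries and were tested, and 14 of these were lower and 3 higher in KD, while 17 did not pass. In bulk RNA, fewer cells of a type and less RNA per cell cannot be told apart. The 14 included Atf4 and Ddit3 themselves, the feedback phosphatase subunit Ppp1r15a, asparagine synthetase (Asns) and the 4 mitochondrial folate enzymes among the members. The 3 that rose were the kinase gene Eif2ak3, the proline synthesis gene Pycr1 and the cationic amino acid transporter gene Slc7a3. Calls came from limma on log2(FPKM + 1) over 12299 genes, at a Benjamini-Hochberg adjusted p under 0.05. Over all tested genes 13.6% were lower and 10.9% higher, against 41.2% and 8.82% of the tested members, so the share that rose was close to the background, and 24.5% of all tested genes passed in either direction, against 17 of the 34 members. The median log2 difference was -0.16 for the 34 members and 0.01 for all tested genes. Vldlr reached the filter only through its NC level, and without it 13 of 33 members (39.4%) were lower.

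The groups separated in the same way without a model. In 19 of the 34 tested members every KD library lay below every NC library (55.9%, against 22.9% of all tested genes), and in 4 every KD library lay above (11.8%, against 21.3%). The other 11 overlapped. Without Vldlr, every KD library lay below every NC library in 18 of 33 members (54.5%). Leaving out 1 library at a time gave 9 to 15 lower members and 1 to 7 higher members. The 9 that were lower in all 6 of those fits were Atf4, Ddit3, Ppp1r15a, Vldlr, Asns, Cth, Mthfd2, Mthfd1l and Aldh1l2, and Pycr1 was higher in all 6. Among these, Vldlr was in the test only through its NC level. Without KD1, 15 members were lower (21.5% of all tested genes) and 7 higher (20.9%). Without NC1, 9 were lower (7.59%) and 1 higher (5.08%). Without NC2, 9 were lower (7.5%) and 1 higher (4.8%), and without NC3, 9 were lower (7.98%) and 2 higher (5.29%). Without KD2, 10 were lower (7.99%) and 1 higher (4.82%), and without KD3, 13 were lower (11.8%) and 1 higher (8.18%), each percentage being the share of all tested genes.

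**Figure D1:**
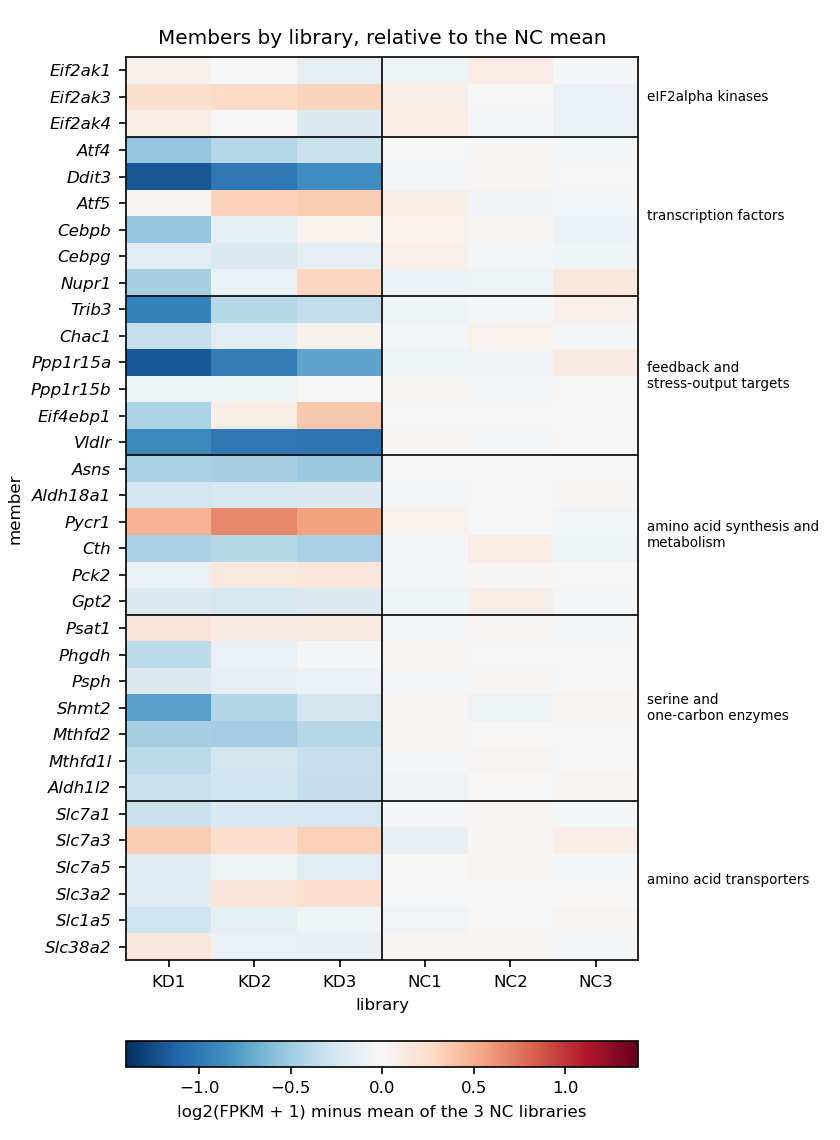
The 34 tested members in rows, grouped by role, in the KD libraries (left) and the NC libraries (right). Colour gives log2(FPKM + 1) minus the mean of the 3 NC libraries of the same gene. Ddit3, Ppp1r15a and Vldlr are deep blue in all 3 KD libraries, Pycr1 is red in all 3, and KD1 differs from KD2 and KD3 in Trib3, Cebpb, Nupr1 and Eif4ebp1.

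The kinase genes among the members were divided. Another eIF2alpha kinase gene, Eif2ak2, is outside the members and was lower in KD (log2 difference -0.74, limma adjusted p = 0.00992). Eif2ak3 encodes PERK, the kinase that senses unfolded protein in the endoplasmic reticulum, and had 6.83, 7.15 and 7.33 FPKM in KD1, KD2 and KD3, against 6.11, 5.73 and 5.31 FPKM in NC1, NC2 and NC3. Every KD value was above every NC value, a log2 difference of 0.27 (SE 0.07, limma adjusted p = 0.0304), and the call ended in 5 of the 6 fits with a library left out, all but the one without KD1 (adjusted p up to 0.112). Eif2ak4, which encodes GCN2, the sensor of uncharged tRNA, had 5.76 ± 0.69 FPKM in KD and 5.94 ± 0.46 FPKM in NC (SD, n = 3; limma adjusted p = 0.788). Eif2ak1, which encodes the haem-regulated kinase HRI, had 14.5 ± 0.996 FPKM in KD and 14.7 ± 0.982 FPKM in NC (limma adjusted p = 0.885). Neither of these kinases passed, and their groups overlapped.

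Among the transcription factors, Atf4 and Ddit3 fell. Atf4 (ENSMUSG00000042406, chromosome 15 at 80255184 to 80257541, plus strand, mm10) had 153, 168 and 179 FPKM in KD1, KD2 and KD3, against 222, 224 and 219 FPKM in NC1, NC2 and NC3. The groups did not overlap, and KD kept 75.0% of the NC level. Ddit3, the CHOP gene (ENSMUSG00000025408, chromosome 10 at 127290774 to 127296288, plus strand), had 20.5, 23.7 and 26.1 FPKM in the KD libraries, against 47.3, 49.1 and 48.6 FPKM in the NC libraries. KD kept 48.5% of the NC level, more than for Vldlr (23.4%) and Ppp1r15a (47.0%), and 1.80% of all tested genes had a log2(FPKM + 1) difference as low or lower. In log2(FPKM + 1), KD minus NC, Atf4 differed by -0.42 (SE 0.07, limma adjusted p = 0.00715) and Ddit3 by -1.02 (SE 0.09, limma adjusted p = 0.000572). Ddit3 overlaps Mars, the methionyl-tRNA synthetase gene on the opposite strand, which had 61.9 FPKM in KD and 76.2 FPKM in NC, and with no strand setting given their reads cannot be told apart where they overlap. The same holds for Atf5 with Nup62, Cebpb with Tmem189, Shmt2 with Ndufa4l2, Psph with Cct6a, Eif2ak1 with Aimp2 and Aldh1l2 with D10Wsu102e.

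The other factors did not pass in the main analysis of all 6 libraries. Atf5, a bZIP factor also controlled at translation, had 204, 250 and 255 FPKM in KD1, KD2 and KD3, against 210, 193 and 195 FPKM in the NC libraries. KD1 lay within the NC range while KD2 and KD3 lay above it, and the log2 difference was 0.24 (limma adjusted p = 0.122), or 0.34 without KD1 (limma adjusted p = 0.00377). Cebpb, which encodes a C/EBP partner of ATF4, had 33.2, 45.1 and 51.0 FPKM in KD and 46.5 to 51.0 FPKM in NC (limma adjusted p = 0.352). KD1 lay far below the NC libraries, KD2 just below them and KD3 within their range. Cebpg, another C/EBP partner, had 21.1 to 22.1 FPKM in KD and 23.3 to 25.7 FPKM in NC, without overlap but short of the threshold (limma adjusted p = 0.0838). Nupr1, a stress-induced chromatin protein gene, spread from 11.93 to 20.999 FPKM in KD and overlapped the 15.8 to 18.8 FPKM of NC. Atf3, an early target of ATF4, was not tested: it had 0, 1 and 0 reads in the KD libraries and 3, 5 and 6 reads in the NC libraries, lower in every KD library but below the expression filter.

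**Figure D2:**
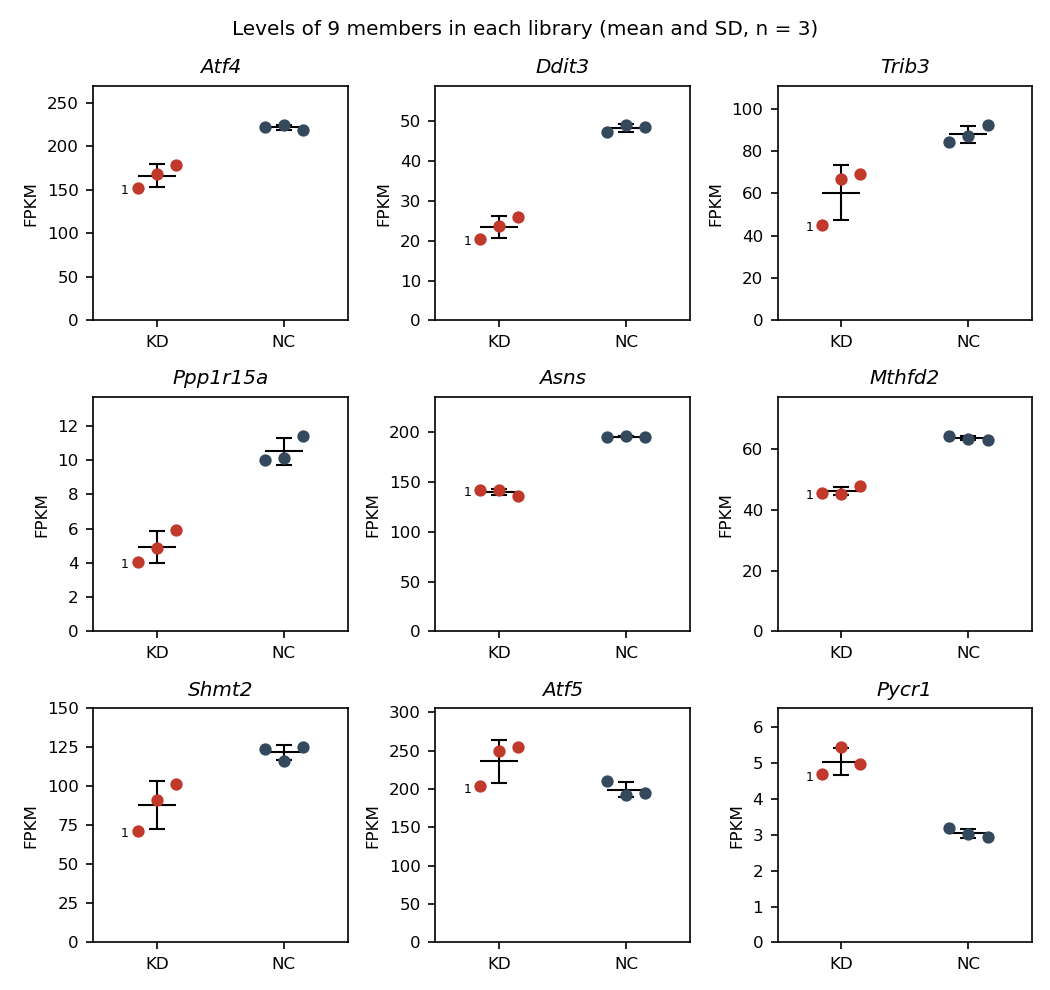
FPKM of 9 members in each KD library (left, red) and each NC library (right, dark), with the mean and SD of each group (n = 3) and KD1 marked 1. Atf4, Ddit3, Ppp1r15a, Asns and Mthfd2 are lower in all KD libraries, Pycr1 is higher in all, and in Trib3, Shmt2 and Atf5 KD1 lies below KD2 and KD3.

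Feedback genes differed from one another. Ppp1r15a, which encodes GADD34, the stress-induced subunit that directs a phosphatase to eIF2alpha, had 4.05, 4.85 and 5.92 FPKM in KD1, KD2 and KD3, against 10.03, 10.11 and 11.41 FPKM in NC1, NC2 and NC3. Its KD level was 47.0% of the NC level and the groups lay far apart (log2 difference -0.96, SE 0.12, limma adjusted p = 0.00266). Its constitutive counterpart Ppp1r15b had 41.5 ± 1.18 FPKM in KD and 42.7 ± 0.46 FPKM in NC (SD, n = 3; log2 difference -0.04, limma adjusted p = 0.603). Trib3, a pseudokinase gene induced by ATF4 and CHOP that restrains them, had 45.3, 66.7 and 69.2 FPKM in KD and 84.5, 87.2 and 92.3 FPKM in NC. All KD values were below the NC values, but KD1 was far below the other KD libraries, and the log2 difference of -0.56 (SE 0.16, limma adjusted p = 0.0438) lost its call without KD2, NC1, NC2 or NC3 (adjusted p up to 0.128) and was -0.37 without KD1 (adjusted p = 0.00288).

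Vldlr, a lipoprotein receptor gene induced by ATF4, was scarce in both groups. It had 0.489, 0.384 and 0.370 FPKM in KD and 1.81, 1.74 and 1.76 FPKM in NC, from 218 and 851 reads, so KD kept 23.4% of the NC level. The log2(FPKM + 1) difference of -0.97 (SE 0.11, limma adjusted p = 0.00157) understates the ratio at this level, and it was -2.09 by voom on the recovered reads. Vldlr reached the filter only through its NC level, so it had to differ. Chac1, a glutathione-degrading enzyme gene downstream of ATF4, had 11.5 ± 1.66 FPKM in KD and 12.7 ± 0.37 FPKM in NC (SD, n = 3) and did not pass (limma adjusted p = 0.351). Eif4ebp1, whose product restrains cap-dependent translation, had 36.5, 53.7 and 65.6 FPKM in KD against 49.95, 49.97 and 50.51 FPKM in NC, with KD libraries on both sides of NC (limma adjusted p = 0.975). Stc2, a secreted glycoprotein gene induced by PERK and ATF4, was not tested, with 1 read over the 3 KD libraries and 0 over the 3 NC libraries.

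Amino acid synthesis genes were lower in KD for 4 of 6 members (66.7%, against 13.6% of all tested genes). Asns, which makes asparagine from aspartate (ENSMUSG00000029752, chromosome 6 at 7675169 to 7693254, minus strand), had 142, 141 and 136 FPKM in KD1, KD2 and KD3, against 195, 196 and 195 FPKM in the NC libraries. Both groups were tight and far apart, a log2 difference of -0.48 (SE 0.05, limma adjusted p = 0.00112), or 71.5% of the NC level. Cth, which makes cysteine by transsulfuration, had 15.2, 15.8 and 15.2 FPKM in KD and 20.7, 22.9 and 20.1 FPKM in NC (log2 difference -0.44, SE 0.06, limma adjusted p = 0.00482). Its groups did not overlap either.

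The proline branch went both ways. Aldh18a1, which makes the first committed intermediate of proline from glutamate, had 53.2, 55.0 and 55.8 FPKM in KD and 63.4, 64.2 and 65.2 FPKM in NC (log2 difference -0.23, limma adjusted p = 0.0174). Pycr1, the mitochondrial reductase of the last step (ENSMUSG00000025140, chromosome 11 at 120635712 to 120643769, minus strand), had 4.68, 5.45 and 4.99 FPKM in KD and 3.18, 3.02 and 2.93 FPKM in NC. Pycr1 was thus 1.65-fold higher in KD by mean FPKM, with no overlap (log2 difference 0.58, SE 0.08, limma adjusted p = 0.00308). Gpt2, a mitochondrial alanine aminotransferase gene, had 13.3 to 13.6 FPKM in KD and 15.1 to 16.8 FPKM in NC (limma adjusted p = 0.0412), a call that ended in 5 of the 6 fits with a library left out (adjusted p up to 0.158). Pck2, the mitochondrial PEP carboxykinase gene, had 22.2 ± 2.35 FPKM in KD and 20.97 ± 0.389 FPKM in NC (SD, n = 3) and did not pass (limma adjusted p = 0.537). The Aldh18a1 call ended without KD2, NC1, NC2 or NC3 (adjusted p up to 0.0834), and a processed pseudogene on the same strand, Gm15801, which had 4.69 FPKM in KD and 8.01 FPKM in NC, overlaps Aldh18a1 and makes its level uncertain.

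The known binding element of ATF4 with C/EBP partners was looked for in promoters as the letters TGATGNAA on either strand, read from RefSeq's promoter windows (GRCm38.p6), which run from 250 bases before to 50 bases after a gene's start. Windows were found for 29 of the 36 members, and 8 of these genes (27.6%) held a match, against 4.51% of the 27025 genes in the table. The members were chosen as known genes of this response, so this share describes the choice of genes. The 8 sites are printed 5′ to 3′ on the strand of the gene, with the match in capitals, because they show which members carry the element close to the start and that these members did not all move in the same direction.
Asns (chr6:7693219-7693238, minus strand): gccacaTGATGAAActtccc
Vldlr (chr19:27216814-27216833, plus strand): caatagTTGCATCAgcgctc
Trib3 (chr2:152344033-152344052, minus strand): tcaggtTTACATCAgccggg
Pycr1 (chr11:120643838-120643857, minus strand): tgtgtaTGATGCAAtgcaca
Chac1 (chr2:119351043-119351062, plus strand): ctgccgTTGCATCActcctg
Nupr1 (chr7:126625567-126625586, minus strand): gccagaTTGCATCAgacagg
Pck2 (chr14:55540157-55540176, plus strand): tcaaagTTACATCAgtatct
Atf3 (chr1:191183430-191183449, minus strand): tcgcacTTGCATCAccaagt
Among genes with a match, Asns, Trib3 and Vldlr, which was tested only through its NC level, were lower in KD. Pycr1 was higher, Chac1, Nupr1 and Pck2 did not pass, and Atf3 was not tested. Of the 12 lower members with a window 3 held a match, as did 3 of the 13 tested members that did not pass. A match is a description of the letters, and its absence says nothing about binding elsewhere.

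Asns and Pycr1 both carry the element before the RefSeq start, with its first base at -23 in Asns and -103 in Pycr1, and moved in opposite directions. The Asns match lies inside the gene span given above, which begins further upstream than the RefSeq start. Their 250 bases before the RefSeq start are given for comparison, with the match in capitals.
Asns (chr6:7693210-7693459, minus strand): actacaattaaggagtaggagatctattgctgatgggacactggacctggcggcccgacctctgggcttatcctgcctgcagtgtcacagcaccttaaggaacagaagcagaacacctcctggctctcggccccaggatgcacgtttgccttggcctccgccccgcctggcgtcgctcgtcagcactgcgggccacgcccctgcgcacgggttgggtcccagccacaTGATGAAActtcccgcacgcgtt
Pycr1 (chr11:120643749-120643998, minus strand): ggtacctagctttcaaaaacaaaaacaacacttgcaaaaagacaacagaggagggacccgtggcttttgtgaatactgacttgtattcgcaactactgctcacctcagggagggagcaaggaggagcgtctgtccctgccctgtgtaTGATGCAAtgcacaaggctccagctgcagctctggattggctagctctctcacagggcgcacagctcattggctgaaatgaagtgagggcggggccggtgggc

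Serine synthesis and mitochondrial folate enzymes showed different calls. The 3 serine synthesis genes did not pass: Phgdh, for the first step, had 194 ± 23.4 FPKM in KD and 216 ± 1.69 FPKM in NC (SD, n = 3; limma adjusted p = 0.242). Psat1, for the second step, had 212, 203 and 205 FPKM in KD and 185, 192 and 185 FPKM in NC, above NC in all 3 libraries but short of the threshold (log2 difference 0.14, limma adjusted p = 0.0873). Psph, for the last step, had 18.7 to 20.4 FPKM in KD and 21.24 to 21.98 FPKM in NC (limma adjusted p = 0.128). Psat1 passed without KD1 (limma adjusted p = 0.0396), still higher in KD.

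All 4 members that carry the serine-derived carbon through mitochondrial folate fell, against 13.6% of all tested genes. Of these, Shmt2, Mthfd1l and Aldh1l2 share chromosome 10, and their calls ended with each chromosome's median removed, as given below. Mthfd2, the methylene-folate dehydrogenase gene, had 45.6, 45.0 and 47.7 FPKM in KD1, KD2 and KD3, against 64.1, 63.0 and 63.0 FPKM in NC (log2 difference -0.45, SE 0.05, limma adjusted p = 0.00164). Shmt2, which splits serine to glycine, had 71.4, 91.4 and 102 FPKM in KD and 124, 116 and 125 FPKM in NC (log2 difference -0.48, SE 0.13, limma adjusted p = 0.036). Its KD libraries were spread widely, with KD1 lowest, and the call ended without KD2, NC1, NC2 or NC3 (adjusted p up to 0.114). Mthfd1l, for formate release, had 29.3, 31.8 and 30.3 FPKM in KD and 37.4, 39.2 and 38.2 FPKM in NC (log2 difference -0.32, SE 0.05, limma adjusted p = 0.00798). Aldh1l2, for formyl-folate oxidation, had 27.5, 28.1 and 27.0 FPKM in KD and 33.1, 34.5 and 35.4 FPKM in NC (log2 difference -0.31, SE 0.05, limma adjusted p = 0.00776). None of the 4 overlapped between groups, when 22.9% of all tested genes had every KD library below every NC library.

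Differences also varied by chromosome. The median log2 difference of all tested genes was -0.19 on chromosome 10, which holds Ddit3, Shmt2, Mthfd1l and Aldh1l2. It was -0.22 on chromosome 6, which holds Asns, Mthfd2 and Eif2ak3. Of the 7 tested members on these chromosomes 6 were lower, and these are 6 of the 14 lower members. Chromosome 10 held 595 and chromosome 6 held 598 of the 12299 tested genes. The median was also -0.19 on chromosome 14, whose member Pck2 did not pass. With each chromosome's median removed, the log2 difference was -0.83 for Ddit3, -0.26 for Asns and -0.23 for Mthfd2, which kept their calls. The calls ended for Shmt2 (log2 difference -0.29, limma adjusted p = 0.161), Mthfd1l (-0.13, adjusted p = 0.144) and Aldh1l2 (-0.12, adjusted p = 0.16), and Eif2ak3, also on chromosome 6, had a difference of 0.49 (adjusted p = 0.00452). Slc7a5 (-0.30, limma adjusted p = 0.0109) and Cebpg (-0.25, adjusted p = 0.0293) were added to the lower ones. In that fit 13 members were lower and 3 higher, when 11% and 8.74% of all tested genes were. The part of chromosome position in these differences was not tested further.

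Of 6 amino acid transporter genes 1 fell, 1 rose and 4 did not pass. The 16.7% each way was close to the 13.6% lower and 10.9% higher among all tested genes. Slc7a1, which imports arginine and lysine, had 37.3, 39.9 and 39.1 FPKM in KD and 45.9, 47.8 and 45.8 FPKM in NC (log2 difference -0.26, SE 0.05, limma adjusted p = 0.0159). Its paralog Slc7a3 had 16.8, 15.5 and 16.4 FPKM in KD and 11.9, 13.0 and 13.8 FPKM in NC (log2 difference 0.31, SE 0.07, limma adjusted p = 0.0207). Neither pair of groups overlapped, so these 2 cationic amino acid transporters moved in opposite directions. The Slc7a1 call ended without NC1, NC2 or NC3 (adjusted p up to 0.0842), and the Slc7a3 call without KD2, KD3, NC1 or NC2 (adjusted p up to 0.0785).

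The large neutral amino acid exchanger is formed by Slc7a5 and Slc3a2. Slc7a5 had 96.5 ± 3.67 FPKM in KD and 106 ± 2.64 FPKM in NC (SD, n = 3; limma adjusted p = 0.125). Slc3a2, the shared heavy chain, had 52.4, 66.9 and 69.6 FPKM in KD and 59.0, 59.3 and 59.1 FPKM in NC, with KD1 below and the other KD libraries above NC (limma adjusted p = 0.629, or 0.00692 and higher in KD without KD1). The glutamine carrier gene Slc1a5 had 43.3 ± 3.26 FPKM in KD and 48.2 ± 1.31 FPKM in NC, without overlap (limma adjusted p = 0.146). Slc38a2, a carrier of small neutral amino acids, had 97.5 ± 10.5 FPKM in KD and 98.0 ± 1.87 FPKM in NC (limma adjusted p = 0.933).

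**Figure D3:**
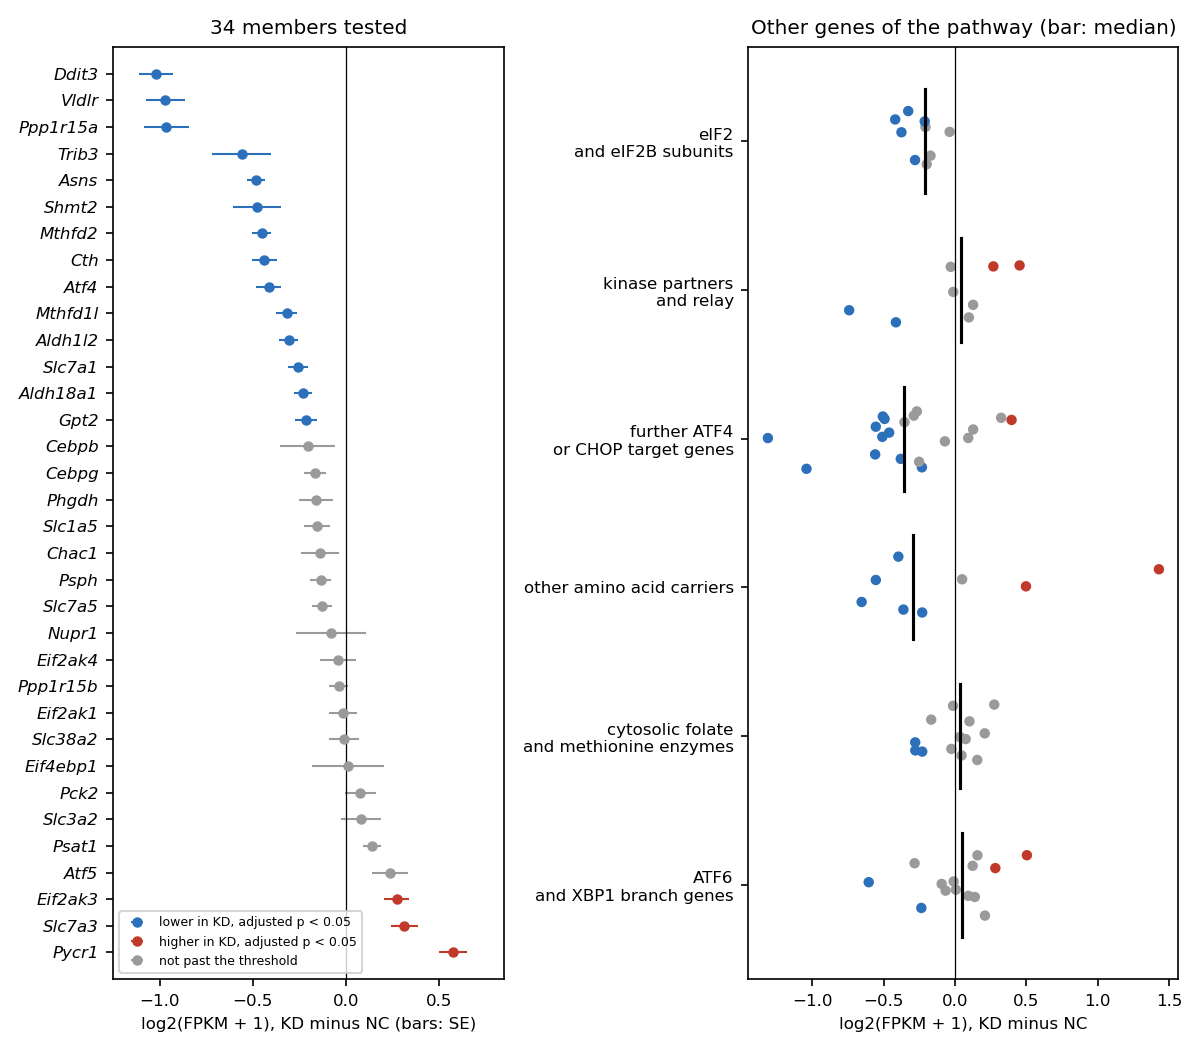
Left, the log2(FPKM + 1) difference, KD minus NC, of the 34 tested members with its SE, blue for lower and red for higher in KD at a limma adjusted p under 0.05 and grey for the rest. Right, the same difference for other genes of the pathway in 6 lists, with a bar at each list's median. Medians lie below 0 for further ATF4 or CHOP targets (-0.35), other amino acid carriers, and eIF2 and eIF2B subunits listed with Eif2a (-0.21). The median of the carriers was -0.30, or -0.23 without the 3 that reached the filter in 1 group only.

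Further known targets of ATF4 or CHOP, outside the members, were lower more often than higher. Like the members and the other lists, they were chosen with earlier results of these data known. Their share is therefore no independent check on the members. Of 20 such genes 19 were tested, 10 were lower (52.6%, against 13.6% of all tested genes) and 1, Cebpd, was higher (5.26%, against 10.9%), with a median log2 difference of -0.35 (0.01 for all tested genes). Ero1l, an oxidase of the endoplasmic reticulum that CHOP is known to induce, had 66.7, 47.6 and 41.5 FPKM in KD and 133, 129 and 121 FPKM in NC (log2 difference -1.31, limma adjusted p = 0.00256). Ddit4, an inhibitor of mTORC1 signalling, had 4.99, 7.02 and 8.25 FPKM in KD and 13.8, 13.4 and 17.1 FPKM in NC (log2 difference -1.04, limma adjusted p = 0.00677). Ifrd1, a transcriptional co-regulator gene, had 38.7 ± 4.36 FPKM in KD and 57.3 ± 3.23 FPKM in NC (SD, n = 3), and Bcl2l11, which encodes the death-promoting protein BIM, had 5.79 ± 0.61 FPKM in KD and 8.95 ± 0.34 FPKM in NC. Leaving out single libraries gave 8 to 12 lower genes, and 4 higher genes without KD1 but 0 without any 1 of the others. Without a filter, with a filter of 5 FPKM or with a replicate block 0 were higher, and 2 were higher by quantile normalization or with the GC and length trend removed.

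The target of the kinases, eIF2, and its exchange factor eIF2B were lower or not called. Their list also held Eif2a, which encodes the separate initiation factor eIF2A and did not pass (limma adjusted p = 0.183). Of 10 genes in that list 9 were tested, 5 were lower (55.6%, against 13.6% of all tested genes) and 0 higher (limma, with 0 at an unadjusted p under 0.05 and 0 by voom on recovered reads), with a median of -0.21. The gamma subunit gene Eif2s3x had 42.8, 39.3 and 39.6 FPKM in KD and 52.4, 56.4 and 54.9 FPKM in NC (log2 difference -0.42, limma adjusted p = 0.00415), while its Y-linked copy was listed at 0. Eif2b3 (log2 difference -0.38, limma adjusted p = 0.0136), Eif2b5 (-0.33, 0.015) and Eif2b2 (-0.28, 0.0221) encode eIF2B subunits. Eif2s1, which encodes the phosphorylated alpha subunit, had 33.1 ± 1.397 FPKM in KD and 34.02 ± 1.253 FPKM in NC (SD, n = 3; limma adjusted p = 0.674). The count of lower genes was 1 without KD2 or NC1, 2 without NC2 or NC3, and 7 without KD1.

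A further list of 8 genes held the eIF2alpha kinase gene Eif2ak2 and partners of the kinases. Of these, 2 were lower and 2 higher (25% each, against 13.6% and 10.9% of all tested genes). Eif2ak2, which encodes PKR, the interferon-induced kinase that senses double-stranded RNA, had 45.8, 33.6 and 31.7 FPKM in KD and 61.8, 64.7 and 59.1 FPKM in NC (log2 difference -0.74, limma adjusted p = 0.00992). Nck2, for an adaptor protein, was also lower (log2 difference -0.41, limma adjusted p = 0.0144). Dnajc3, which encodes the kinase inhibitor P58IPK, had 20.7, 18.1 and 18.6 FPKM in KD and 15.3, 15.9 and 15.9 FPKM in NC (log2 difference 0.27, limma adjusted p = 0.0277), and Oma1, the mitochondrial protease gene of the stress relay to HRI, had 2.65 ± 0.27 FPKM in KD and 1.68 ± 0.31 FPKM in NC (log2 difference 0.45, limma adjusted p = 0.0309). The higher count was 0 without KD2, NC2 or NC3, 1 without KD3 or NC1 and 3 without KD1, and the lower count was 1 without KD2 or NC1. With chromosome medians removed 1 was lower, since Nck2 did not pass (limma adjusted p = 0.0701), and 1 higher, and 1 was higher without a filter, with a filter of 5 FPKM or with a replicate block.

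Of 14 other amino acid carriers 8 were tested, 5 were lower and 2 higher (62.5% and 25%, against 13.6% and 10.9% of all tested genes). Of these, 3 reached the filter only through their higher group, Slc1a3 through KD and Slc38a1 and Slc7a2 through NC, so they had to differ, and without them 3 of 5 were lower and 1 higher, with a median log2 difference of -0.23. Slc6a6, the taurine carrier gene, had 40.1, 39.6 and 43.5 FPKM in KD and 60.4, 60.5 and 61.4 FPKM in NC (log2 difference -0.56, limma adjusted p = 0.00115), and Slc7a6, of an exchanger for cationic and neutral amino acids, had 23.6, 23.1 and 23.0 FPKM in KD and 15.86, 15.97 and 16.68 FPKM in NC (log2 difference 0.50, limma adjusted p = 0.0012). The glutamate carrier gene Slc1a3 had 2.46 ± 0.24 FPKM in KD and 0.282 ± 0.0512 FPKM in NC, and Slc38a1 had 0.697 ± 0.101 FPKM in KD and 1.67 ± 0.157 FPKM in NC. Over all 8, the lower count was 2 without KD2, KD3, NC1, NC2 or NC3 and without a filter, and 3 by quantile normalization, with a filter of 5 FPKM or with a replicate block. The higher count was 1 with a filter of 5 FPKM.

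Other folate and methionine cycle enzymes, most of them cytosolic, included 3 lower (23.1%, against 13.6% of all tested genes) and 0 higher of 13 tested (by limma, with 1 higher at an unadjusted p under 0.05, and 0 by voom), with a median of 0.03. Among these, Mat2a, which makes S-adenosylmethionine (log2 difference -0.28, limma adjusted p = 0.0289), and the methionine synthase gene Mtr (-0.23, limma adjusted p = 0.0368) were lower. Shmt1 and Mthfd1, the cytosolic counterparts of Shmt2 and Mthfd2, did not pass, with Shmt1 at 19.8 ± 0.757 FPKM in KD and 20.1 ± 0.737 FPKM in NC and Mthfd1 at 31.7 ± 3.07 FPKM in KD and 30.02 ± 1.41 FPKM in NC. Mthfd2l, a mitochondrial relative of Mthfd2 in this list, had 3.01 ± 0.77 FPKM in KD and 2.71 ± 0.35 FPKM in NC (limma adjusted p = 0.655). The lower count was 0 without KD2, NC1 or NC2 and 1 without KD3 or NC3, it was 1 with chromosome medians removed or no filter, and 2 enzymes were higher without KD1.

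Of 14 genes of the ATF6 and XBP1 branches of the unfolded protein response 2 were lower and 2 higher (14.3% each). These shares were close to the 13.6% and 10.9% of all tested genes, and 10 did not pass, with a median log2 difference of 0.05. Every KD library lay above every NC library in 6 of the 14 (42.9%, against 21.3% of all tested genes). Every KD library lay below in 2 (14.3%, against 22.9%). Edem1, for degradation of misfolded glycoproteins, had 23.4, 22.2 and 21.9 FPKM in KD and 34.2, 35.5 and 34.5 FPKM in NC (log2 difference -0.61, limma adjusted p = 0.000572), and the sensor gene Ern1 was lower (-0.24, limma adjusted p = 0.0394). Atf6b had 22.7, 25.6 and 27.6 FPKM in KD and 18.3, 17.0 and 17.2 FPKM in NC (log2 difference 0.50, limma adjusted p = 0.00634), and Herpud1, of the degradation complex, was higher as well (0.28, limma adjusted p = 0.0153). The chaperone gene Hspa5 had 428 ± 9.79 FPKM in KD and 389 ± 6.72 FPKM in NC, above NC in every KD library but short of the threshold (limma adjusted p = 0.0907). Without KD1, 5 were higher and 3 lower, and without KD2, NC1 or NC3, 1 was higher and 1 lower, and without KD3 or NC2, 2 were higher and 1 lower. The lower count was 1 without a filter or with a replicate block, and the higher count was 4 by quantile normalization and 5 with the GC and length trend removed.

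The position of KD1 among the KD libraries moved with GC content. KD1 lay below both other KD libraries in 23 of the 34 tested members (67.6%), against 43.7% of all tested genes. Over those 34 members the log2 difference of KD1 from the mean of KD2 and KD3 fell with the GC content of the transcript, with Pearson's r of -0.56 and Spearman's rho of -0.63, and over all tested genes rho was -0.66. This is a description across genes that share the same libraries. Trib3 (58.2% GC), Shmt2 (57.4%), Cebpb (67.2%) and Atf5 (61.7%) were GC-rich members with a low KD1 value, while Eif4ebp1 (48.2%) and Nupr1 (49.9%) were low in KD1 at moderate GC. With a GC and length trend removed from each library, 18 members were lower (18% of all tested genes) and 4 higher (19.4%), and Chac1, Cebpb, Phgdh and Slc1a5 were added to the lower ones and Psat1 to the higher ones.

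**Figure D4:**
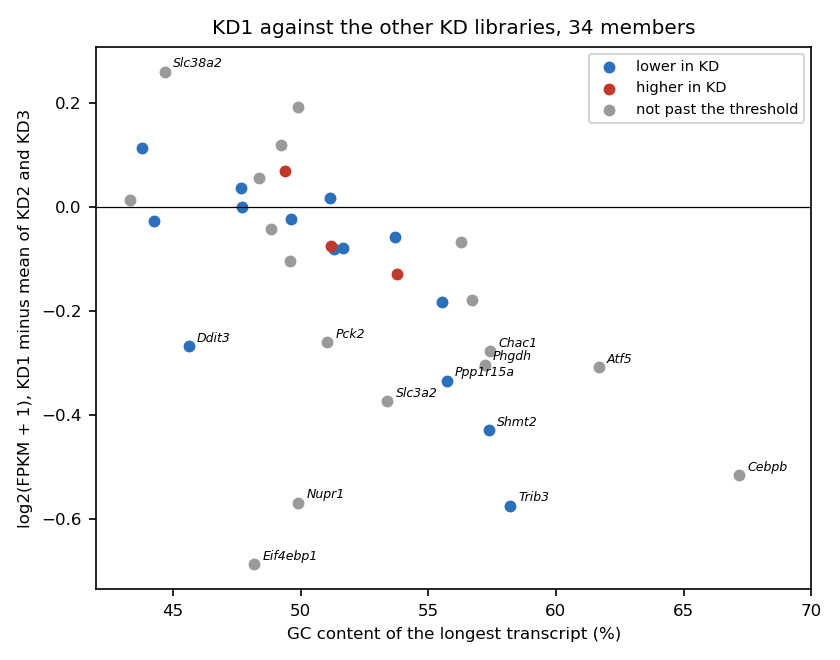
Each point is a tested member, placed by the GC content of its longest transcript and by the log2(FPKM + 1) of KD1 minus the mean of KD2 and KD3. Points fall from left to right (rho -0.63, n = 34), and the lowest are Eif4ebp1, Trib3, Nupr1 and Cebpb.

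**Figure D5:**
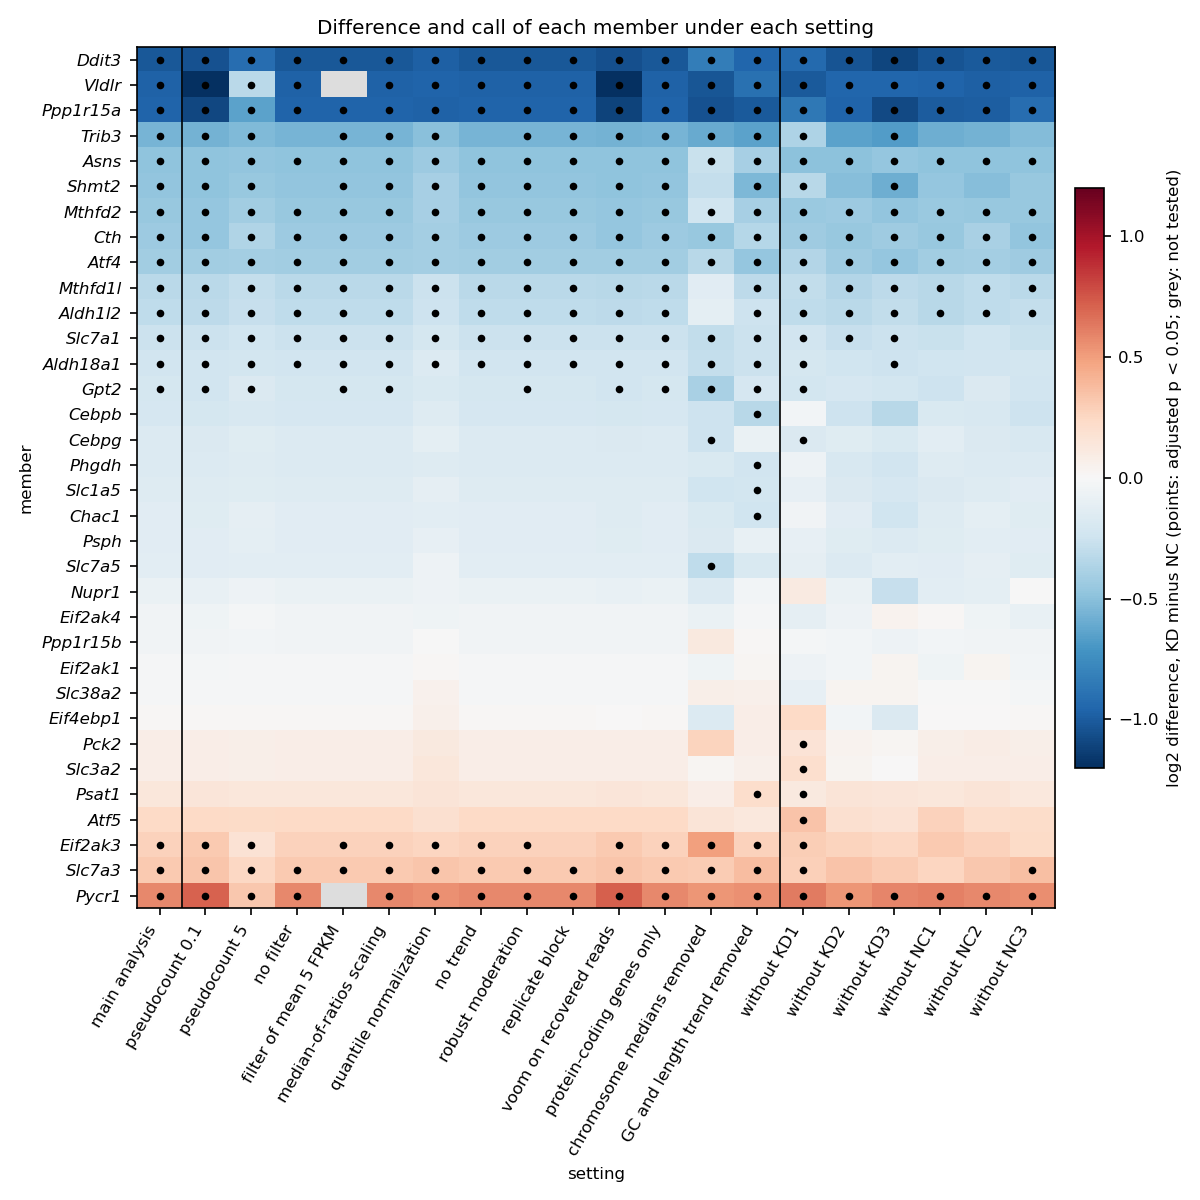
The log2 difference of each tested member, KD minus NC (colour), in the main analysis, under 13 other settings and without each library, with a point where the limma adjusted p was under 0.05 and grey where the gene was not tested (differences past the end of the scale take its end colour). Ddit3, Ppp1r15a, Asns, Mthfd2, Cth and Atf4 carry a point in every column, whereas Trib3, Shmt2, Gpt2 and Eif2ak3 lose theirs in several.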

How the data were processed

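Paired-end reads were aligned with HISAT2 2.0.5, per the labels' protocols, to mm10, per the submitters' processing notes. How genes were counted, and whether by strand, is not given in the sources used here. FPKM values were deposited by the authors for 54532 genes in 6 libraries, with the length of each gene. FPKM times length gave whole reads for 100% of values within 0.01, so depth was recovered. Detection limits from 3 reads (0.164 to 0.189 CPM) cover counting error only. Ddit3 has a second, short entry listed at 0 in every library, which was not used.

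Groups came from the titles. Limma 3.58.1 (R 4.3.3) was fitted to log2(FPKM + 1) of the 12299 genes averaging 1 FPKM or more. An intensity trend was used, and p-values were adjusted by the Benjamini-Hochberg method with a threshold of 0.05. The code was tested on simulated data. The members and lists were chosen with earlier results of these data known. Members are all accounted for, and from each other list up to 4 genes past the threshold with the largest difference were named, except 1 gene that is not reported here. Eif2s1, Shmt1, Mthfd1, Mthfd2l, Hspa5, Cebpd and Slc7a2 were named after their values were seen. Gcn1 was found under its older symbol Gcn1l1. Alternatives were other pseudocounts (0.1, 5), filters, scalings and moderation, a replicate block, voom on recovered reads, protein-coding genes, chromosome medians, a GC and length trend, and each library left out. GC content came from GENCODE M21 transcripts. Other steps ran in Python 3.11.15 with pandas 2.3.3, and matplotlib 3.10.9 drew the plots.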

Additional observations from a re-analysis of the deposited data

How the results depend on the processing

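Of the 14 lower members, 7 (with Vldlr, tested only through its NC level) kept their direction and call under all 19 alternatives that tested them, as did 1 of the 3 higher ones, and none of the 17 changed direction. The lower members numbered 12 to 18 and the higher ones 2 to 4 under the 13 alternatives with all libraries, and 9 to 15 and 1 to 7 with a library left out. Over all tested genes, leaving out a library gave 590 to 2572 higher and 923 to 2648 lower genes, against 1344 and 1672, and removing the GC and length trend gave 2383 higher and 2211 lower. Of the 17 members that did not pass, 6 changed sign under some alternative, all with log2 differences of -0.08 to 0.01 in the main analysis. By quantile normalization the difference was 0.011 for Eif2ak1 and 0.054 for Slc38a2. With chromosome medians removed it was 0.11 for Ppp1r15b, -0.16 for Eif4ebp1 and 0.071 for Slc38a2, and with the GC and length trend removed 0.025 for Eif2ak1, 0.011 for Ppp1r15b and 0.063 for Slc38a2. With a library left out it ranged from -0.058 to 0.034 for Eif2ak1, -0.11 to 0.041 for Eif2ak4, -0.28 to 0.11 for Nupr1, -0.18 to 0.24 for Eif4ebp1 and -0.098 to 0.034 for Slc38a2. The cause was not tested. Whether equal replicate numbers are pairs is not stated. The correlation of deviations was 0.08, -0.04 and 0.15 for equal numbers and -0.16 to 0.08 for unequal ones, which cannot settle it. The highest value was that of KD3 with NC3, but not every library correlated best with its own number. With a replicate block 13 members were lower and 2 higher, and 1383 genes were lower and 1050 higher. Atf3 and Stc2 lay below the expression filter and were not tested. Among members, Ddit3 had the lowest difference in the main analysis, but at a pseudocount of 0.1 Vldlr (-1.87) and Ppp1r15a (-1.09) were below Ddit3 (-1.05).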
